A study of Salmo salar with 18 samples.

Results

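The type X collagen genes col10a1a (ENSSSAG00000004398) and col10a1b (ENSSSAG00000067854) were followed in the gills of Atlantic salmon parr. They were chosen by gene ID, as genes very abundant in gill, and are 2 of the 69389 genes in the count files. The fish came from 1 genetic line and had eaten either a commercial-like control diet (CD) or CD with a small addition of LAN4, a hydrolyzed product of the yeast Debaryomyces hansenii, for 7 weeks and 1 more week of acclimatization. In each diet the gills of 3 fish were sequenced before stress (pre-stress), of 3 at 1 h and of 3 at 6 h after the fish had been netted out of the water for 1 min, which gave 18 libraries. Both diets share the CD base, and pre-stress fish were not netted for the stress. Which tank each sequenced fish came from is not stated. Each diet had as many tanks as sampling times, with as many fish per tank as were sampled at each time after stress. Fish of a group may thus have shared a tank, in which case tank cannot be told apart from diet and time. The p-values below measure the spread between these fish.

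Type X collagen is a short-chain collagen. Its chain carries a triple helix and a C-terminal C1q-like domain, by which chains assemble into trimers and further into network-like lattices. In mammals it is the textbook product of hypertrophic chondrocytes in growth cartilage, where cartilage is replaced by bone. In bony fishes col10a1 is also known from osteoblasts and from forming bone, and the gill has a skeleton of arches and of cartilaginous filament rods. The chains are hydroxylated, folded and secreted with the help of enzymes and chaperones of the endoplasmic reticulum.

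On the Atlantic salmon assembly Ssal_v3.1, col10a1a lies on the plus strand of chromosome 9 from 6403948 to 6410786, with 2 exon blocks of 3018 bases in all. The other gene, col10a1b, lies on the plus strand of chromosome 6 from 59210845 to 59216821, with 3 exon blocks of 2474 bases. The RefSeq models of the same assembly version end 308 bases farther for col10a1a and 510 bases farther for col10a1b, so reads in those last stretches are not in the counts. A gene on the opposite strand overlaps each of them. ENSSSAG00000103827, opposite col10a1a, had between 0 and 2 counts per library, and LOC106607728, opposite col10a1b, had between 21 and 58. Counting was stranded, and these counts were 0.000565% and 0.0396% of those of col10a1a and col10a1b. Fragments that mapped to more than 1 place were not counted, so any stretch that both genes share would be missing from both, and how much is lost this way was not tested.

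Libraries held between 10128626 and 19851609 counted fragments. In the 6 h libraries the counts stop partway along the genome, and only 16 of the 29 chromosomes, with 42615 genes, were counted in full in all 18 libraries. Chromosomes 6 and 9 are among these 16 (complete chromosomes), and all levels and tests below use them alone, with between 7323608 and 14644411 fragments per library. Levels in CPM are counts scaled to a common library size after TMM normalization on the 23153 genes tested. Alignment names in the headers place the 6 libraries of 1 h on lane 1 and the 12 of pre-stress and 6 h on lane 3. The diets were thus compared within a lane, and so were 6 h and pre-stress, while 1 h and its lane cannot be told apart. The median log2 fold change of all genes on chromosomes 6 and 9 lay between -0.021 and 0.027 in every comparison.

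Both genes were among the most abundant gill mRNAs of the complete chromosomes, and genes elsewhere were not ranked. High abundance was part of their choice, so the places below describe the pair and are not a separate result. On a per-length scale (TPM within the complete chromosomes), col10a1b ranged from 4262 to 12962 and took places 1 to 9 in the 18 libraries, with a median place of 3. It alone took between 0.391% and 1.09% of the fragments of the complete chromosomes. Among the genes of these chromosomes it had the highest count in 14 of 18 libraries. The level of col10a1a ranged from 1453 to 4882 TPM, at places 8 to 87 with a median of 16, and from 0.163% to 0.499% of the fragments. In 18 of 18 libraries the TPM of col10a1b was above that of col10a1a. Among the 11 collagen chain genes that could be named on the complete chromosomes, they held the 2 highest mean levels. Averaged over all libraries, col10a1b stood at 8664 TPM and col10a1a at 3166, followed by col1a1a, a chain of the bone and skin collagen type I, at 790. The cartilage collagen gene col2a1b stood at 70.8 TPM, so that the mean level of col10a1b was 122 times and that of col10a1a 44.7 times as high.

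The level of col10a1b was 6581, 6653 and 9163 CPM in the 3 CD fish at pre-stress, 6443, 8671 and 10945 CPM at 1 h, and 4494, 4104 and 5776 CPM at 6 h. In LAN4 it was 9865, 8377 and 10783 CPM at pre-stress, 7999, 7082 and 9342 CPM at 1 h, and 6104, 6255 and 5683 CPM at 6 h. In both diets the 3 fish of 6 h lay below every fish of pre-stress and of 1 h. Against pre-stress alone this held for 10.4% of all genes in CD and 11.4% in LAN4, and against 1 h alone for 15.4% and 14.6%. The share of genes below both was not counted. From the highest mean to the lowest, the groups were LAN4 pre-stress (9675 ± 1214 CPM; SD, n = 3), CD 1 h (8686 ± 2251), LAN4 1 h (8141 ± 1137), CD pre-stress (7466 ± 1470), LAN4 6 h (6014 ± 296) and CD 6 h (4791 ± 875). Neighbours in this order overlapped, except CD pre-stress and LAN4 6 h.

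The level of col10a1a was 1705, 3264 and 3170 CPM in the CD fish at pre-stress, 2367, 3696 and 4947 CPM at 1 h, and 1686, 1708 and 2468 CPM at 6 h. In LAN4 it was 3882, 3887 and 4954 CPM at pre-stress, 4504, 2617 and 4154 CPM at 1 h, and 3819, 3452 and 3488 CPM at 6 h. Every LAN4 fish lay above every CD fish at pre-stress and at 6 h, as for 9.37% and 10.5% of all genes, and the diets overlapped at 1 h. The order of the means was LAN4 pre-stress (4241 ± 617 CPM; SD, n = 3), LAN4 1 h (3758 ± 1004), CD 1 h (3670 ± 1290), LAN4 6 h (3586 ± 202), CD pre-stress (2713 ± 874) and CD 6 h (1954 ± 445). Of the neighbours in this order, only LAN4 6 h and CD pre-stress did not overlap. Within-group spread was narrowest in LAN4 at 6 h, with a coefficient of variation of 5.64% for col10a1a and 4.93% for col10a1b, and widest in CD at 1 h, with 35.2% and 25.9%.

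**Figure D1:**
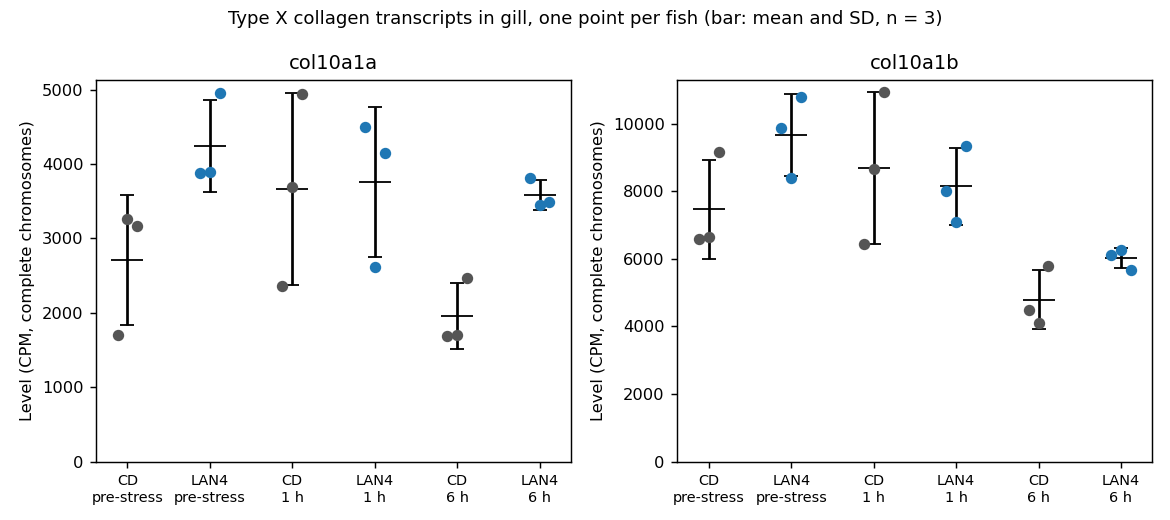
Normalized level (CPM, linear axis from 0) of col10a1a and col10a1b in each of the 18 gill libraries by diet and time; points are fish, bars are group means with SD (n = 3). The 6 h fish lie lowest for col10a1b in both diets (4104 to 6255 CPM). Against pre-stress alone, 10.4% of all genes in CD and 11.4% in LAN4 do so. The LAN4 fish lie above the CD fish for col10a1a at pre-stress and at 6 h, as for 9.37% and 10.5% of all genes.

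The first question was whether the genes changed after the stress. Averaged over the diets, col10a1b was lower at 6 h than at pre-stress, to 0.632-fold (log2 fold change -0.66, standard error 0.14, adjusted p = 0.00597). At this threshold 11.7% of all genes tested were called in the same comparison, and 5.34% were lower. Its call held under each of the 18 alternatives tried, with adjusted p between 2.39e-05 and 0.0211 and log2 fold changes between -0.74 and -0.58. The change was of similar size in each diet taken alone, -0.64 in CD (standard error 0.20) and -0.69 in LAN4 (standard error 0.20), where the adjusted p of 0.0973 and 0.0692 did not pass and 3.11% and 3.78% of all genes were called. All 3 fish of 6 h lay below all 3 of pre-stress in CD and in LAN4, as they did for 10.4% and 11.4% of all genes. DESeq2 called both single-diet changes (adjusted p = 0.0159 and 0.00821), with 6.17% and 6.64% of all genes.

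For col10a1a the same change averaged over the diets was -0.36 (standard error 0.20, adjusted p = 0.262, 95% interval -0.77 to 0.06), which did not pass. It was -0.47 in CD and -0.24 in LAN4 (standard error 0.28 each). In LAN4 every 6 h fish lay below every pre-stress fish, as for 11.4% of all genes, and in CD the groups overlapped.

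At 1 h neither gene was called against pre-stress, and 4.39% of all genes were called over both diets, 1.91% in CD and 1.14% in LAN4. Averaged over the diets the log2 fold change was 0.13 for col10a1a (95% interval -0.28 to 0.54, adjusted p = 0.756) and -0.02 for col10a1b (95% interval -0.32 to 0.29, adjusted p = 0.969). The estimates were positive in CD, 0.44 for col10a1a and 0.22 for col10a1b, and negative in LAN4, -0.17 and -0.25. The difference between these changes was -0.61 for col10a1a (standard error 0.39, adjusted p = 0.604) and -0.47 for col10a1b (standard error 0.29, adjusted p = 0.588), so it was not shown that the diets differed, and 0.00864% of all genes were called. For the change to 6 h the difference between the diets was 0.23 for col10a1a and -0.05 for col10a1b (adjusted p = 0.996 and 0.999), with 0.00432% of all genes called. The 95% intervals of these 2 differences ran from -0.59 to 1.06 and from -0.65 to 0.56.

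Between 1 h and 6 h in CD both genes fell. The fold was 0.532 for col10a1a (log2 fold change -0.91, standard error 0.28, adjusted p = 0.0425) and 0.552 for col10a1b (-0.86, standard error 0.20, adjusted p = 0.012). In this comparison 11.8% of all genes were called and 6.32% were lower, and lane cannot be told apart from time. For col10a1b every 6 h fish lay below every 1 h fish, as for 15.4% of all genes, and for col10a1a the groups overlapped. The call of col10a1a rested on single fish. It was lost without CD 1 h replicate 2 (-0.89, adjusted p = 0.116), CD 1 h replicate 3 (-0.64, adjusted p = 0.163), CD 6 h replicate 1 (-0.82, adjusted p = 0.13) or CD 6 h replicate 2 (-0.82, adjusted p = 0.13). That of col10a1b was lost only without CD 6 h replicate 2 (-0.76, adjusted p = 0.0516) among the single fish left out. In LAN4 the changes were -0.07 for col10a1a and -0.44 for col10a1b (adjusted p = 0.914 and 0.194, with 7.97% of all genes called), and for col10a1b every 6 h fish lay below every 1 h fish, as for 14.6% of all genes. These comparisons share the 6 h fish with those against pre-stress.

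**Figure D2:**
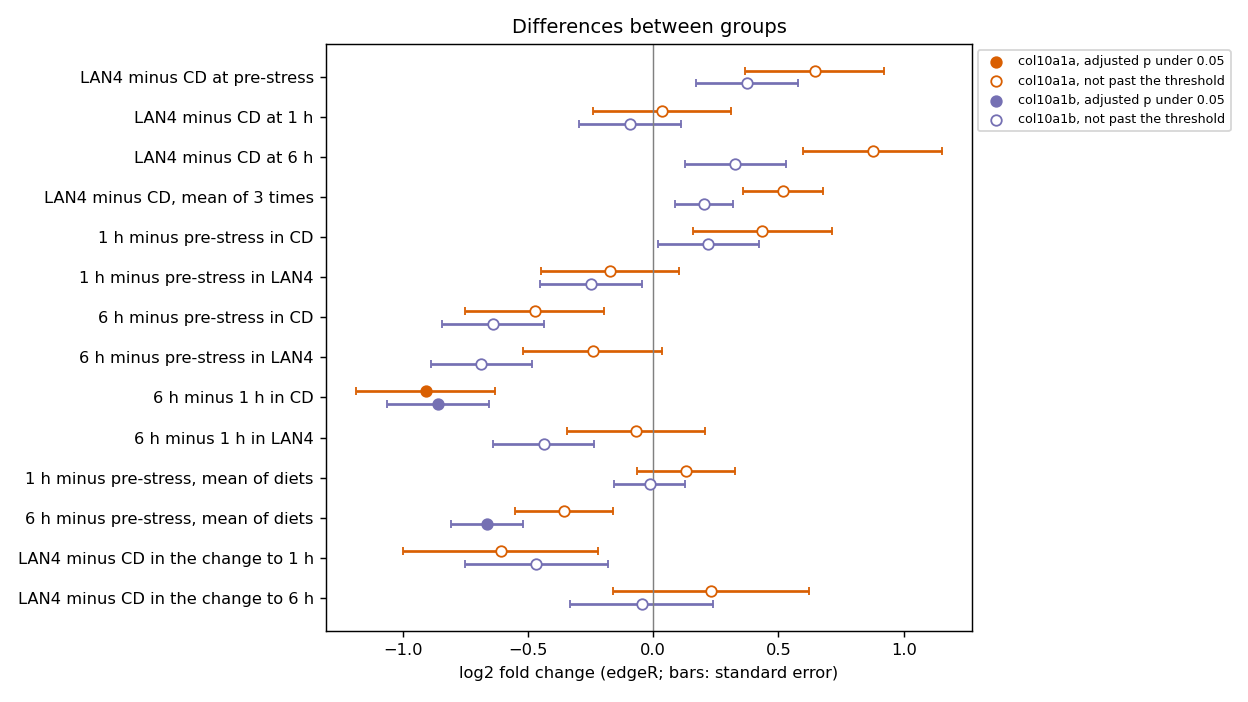
Log2 fold change of col10a1a and col10a1b in 14 comparisons of diets and times by edgeR, with bars of 1 standard error; filled points passed an adjusted p of 0.05. Filled points are the fall of col10a1b from pre-stress to 6 h averaged over the diets (-0.66) and the falls of both genes from 1 h to 6 h in CD (-0.91 and -0.86).

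The second question was whether diet mattered. At pre-stress col10a1a was 1.56-fold as high in LAN4 as in CD (log2 fold change 0.65, standard error 0.28, adjusted p = 0.487) and col10a1b 1.3-fold (0.37, standard error 0.20, adjusted p = 0.6). Neither passed. Of all genes 0.00864% were called here (2 genes), and with the replicate number of the labels as a block in the model 1 gene was called, with col10a1a at 0.66 (adjusted p = 0.431). All LAN4 fish lay above all CD fish for col10a1a, as for 9.37% of all genes.

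At 6 h col10a1a was 1.84-fold as high in LAN4 (log2 fold change 0.88, standard error 0.28, 95% interval 0.29 to 1.46). Its adjusted p of 0.13 did not pass, and 0.587% of all genes (136) were called, but 0 without CD 6 h replicate 2, LAN4 6 h replicate 2 or LAN4 6 h replicate 3. The lowest LAN4 fish stood above the highest CD fish, as for 10.5% of all genes. With DESeq2, which called 3.5% of all genes (811), the difference passed (0.88, adjusted p = 0.034). For col10a1b the difference was 0.33 (standard error 0.20, adjusted p = 0.464, 95% interval -0.10 to 0.75), with overlap between the diets. At 1 h the differences were 0.03 for col10a1a and -0.09 for col10a1b (adjusted p = 0.979 and 0.914), where 0 genes (0%) were called by edgeR, 21 by DESeq2, and 1928 had an unadjusted p under 0.05.

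Averaged over the 3 times, col10a1a was 1.43-fold as high in LAN4 (0.52, standard error 0.16, adjusted p = 0.142) and col10a1b 1.15-fold (0.20, standard error 0.12, adjusted p = 0.528). Neither passed, and 0.76% of all genes were called. DESeq2 called col10a1a here as well (0.52, adjusted p = 0.0321), with 2.62% of all genes.

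The ratio of the genes within a library needs no normalization between libraries. For each count of col10a1a there were between 1.6 and 3.86 of col10a1b. At 6 h there were 1.6, 1.81 and 1.63 counts of col10a1b per count of col10a1a in the LAN4 fish, against 2.66, 2.4 and 2.34 in the CD fish, without overlap. The mean log2 ratio of col10a1a to col10a1b was -0.75 ± 0.10 (SD, n = 3) in LAN4 and -1.30 ± 0.10 in CD at 6 h, a difference of 0.56. The two-sided exact permutation test gave p = 0.1, the smallest that 3 fish against 3 allow, and 0.325 after adjustment over 13 comparisons of the ratio. Over all 3 times the ratio was higher in LAN4 by 0.33 (exact permutation p = 0.015 with diets permuted within times, adjusted p = 0.195). It was higher at 6 h than at pre-stress by 0.32 over both diets (exact permutation p = 0.04, adjusted p = 0.26). Without CD pre-stress replicate 2, these differences were 0.41 and 0.44, each with an adjusted exact permutation p of 0.0325. That fish had 2.04 counts of col10a1b per count of col10a1a. The 3.86 and 2.89 of the others in its group were the highest of any fish. Under the other 19 and 13 alternatives neither difference passed, with values down to 0.26 and 0.21 and adjusted exact permutation p up to 0.433. None of the 13 comparisons passed with all fish. Those of 3 fish against 3 could not, whatever the values, since their smallest exact permutation p of 0.1 is above the threshold. With labels exchanged only within fish of the same replicate number, the adjusted exact permutation p was 0.406 both over the 3 times and for 6 h against pre-stress. The smallest unadjusted p this exchange allows is 0.00391 and 0.0312 in these 2 comparisons. None of the 13 could therefore pass after adjustment, whatever the values, and this exchange cannot decide the question.

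**Figure D3:**
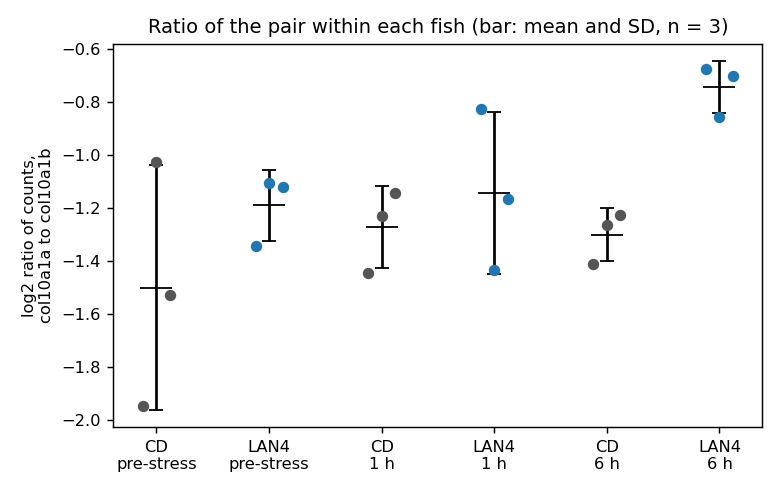
Log2 ratio of col10a1a to col10a1b counts in each fish by group; points are fish, bars are group means with SD (n = 3). The 3 LAN4 fish at 6 h (mean -0.75) lie above the 3 CD fish at 6 h (mean -1.30), and CD fish at pre-stress are the most spread.

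The levels of both genes went together among fish. Over the 18 fish the log2 CPM of col10a1a and col10a1b correlated with Pearson's r of 0.785 (permutation p = 0.00013) and Spearman's rho of 0.723 (permutation p = 0.001). In all, 5 correlations were computed, with adjusted p of 0.00035 and 0.00395 for these. Without CD 6 h replicate 1 and CD pre-stress replicate 1, the fish farthest from the median of col10a1a, r was 0.796 and rho 0.703. With each gene centred on the 6 group means r was 0.78 and rho 0.709, so fish of one group that were high in one gene tended to be high in the other. Within lane 1 (6 libraries) r was 0.887 and rho 0.829 (permutation p = 0.0196 and 0.0583), and within lane 3 (12 libraries) r was 0.741 and rho 0.629 (permutation p = 0.00632 and 0.033).

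**Figure D4:**
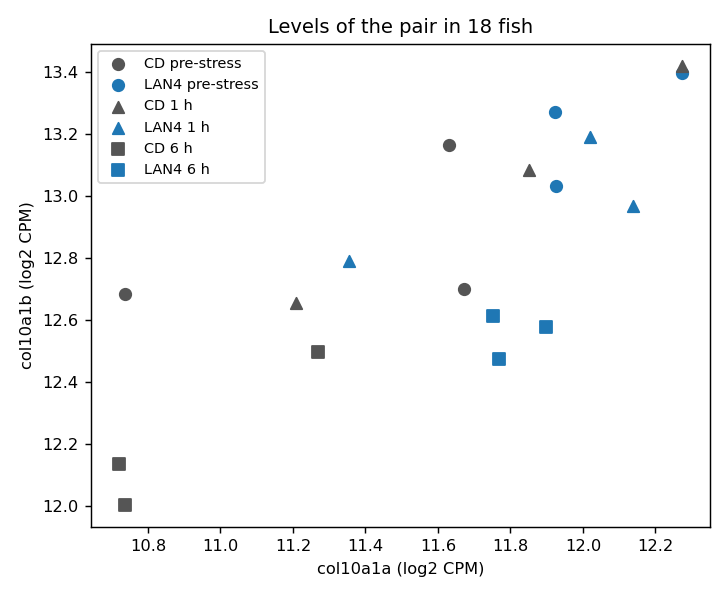
Level of col10a1a against col10a1b (log2 CPM) in 18 fish, coloured by diet with a symbol per time. Fish high in one gene are high in the other (r = 0.785), and LAN4 fish at 6 h lie toward more col10a1a for their col10a1b.

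Many genes followed col10a1a more closely than its partner did. Among 15051 genes with a mean log2 CPM of at least 3, col10a1b took place 239 in likeness to col10a1a, and col10a1a place 170 in likeness to col10a1b. Correlations of 0.9 or more were reached by 34 genes for col10a1a and by 3 for col10a1b, and of the 100 genes most like each, 19 were shared. These correlations are descriptions over the same 18 libraries, which share groups and depth. The gene most like col10a1b was p3h1 (r = 0.921, and 0.739 within groups), the prolyl 3-hydroxylase that modifies collagen chains in the endoplasmic reticulum. It was followed by LOC106580963 (0.905), LOC106579847 (0.901), the kinesin gene kif26ab (0.897), ENSSSAG00000086120 (0.896), LOC106571097 (0.891), LOC106590795 (0.89), ccbe1 (0.887), whose product is a matrix protein needed for lymphatic growth in zebrafish and mouse, LOC106610889 (0.885) and LOC106600935 (0.885). Among the 5 most unlike was p3h2 (-0.885), another prolyl 3-hydroxylase, and the lowest was ENSSSAG00000076550 (-0.904). The others were LOC106568942 (-0.884), LOC106603577 (-0.868) and LOC106580825 (-0.865).

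The 10 genes most like col10a1a all carry LOC names, from LOC106599706 (r = 0.956), LOC106579751 (0.947) and LOC106569953 (0.941) through LOC106570233, LOC106613575, LOC106561895, LOC106572142, LOC106573246 and LOC106564737 to LOC106568728 (0.925). Its 5 most unlike genes, LOC106566879 (-0.844), LOC106612496, LOC106588289, LOC106613633 and LOC106568528 (-0.833), do so too. Among the genes of the lists described next, hapln1b, the cartilage link protein, was closest to col10a1a (r = 0.924, and 0.574 with col10a1b), and p3h1 was at 0.874.

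**Figure D5:**
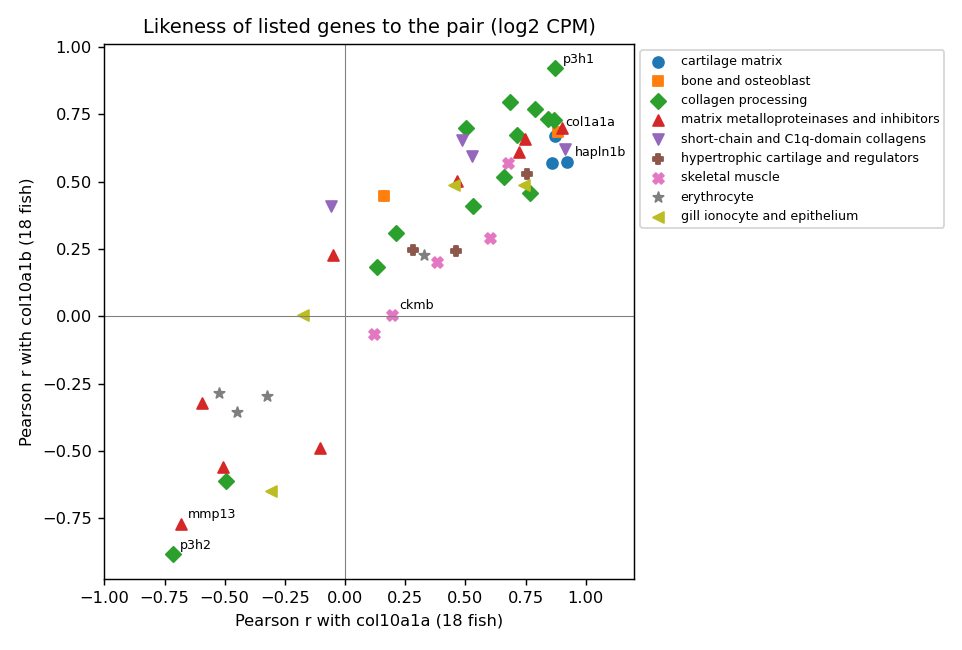
Pearson r with col10a1a (x axis) and with col10a1b (y axis) over 18 fish for the genes of 9 lists with a mean log2 CPM of at least 3, coloured by list. The collagen-modifying p3h1 lies highest for col10a1b (0.921), hapln1b farthest right (0.924 with col10a1a), and p3h2 lowest for both (-0.715 and -0.885).

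The enzymes that process collagen were covered by 17 genes tested of 28 names. Averaged over the diets, 2 were lower and 1 was higher at 6 h than at pre-stress, where 5.34% of all genes were lower and 11.7% were called in either direction, and the median over the list was -0.18 (log2 fold change) against -0.01 over all genes. The prolyl 3-hydroxylase gene p3h1 ranged from 35.2 to 57.9 CPM in the 6 fish at pre-stress and from 29.9 to 40.3 CPM in the 6 fish at 6 h. It changed by -0.42 (standard error 0.09, adjusted p = 0.0059), in the same direction as plod1a, a lysyl hydroxylase gene (-0.29, standard error 0.06, adjusted p = 0.00418). The other prolyl 3-hydroxylase gene, p3h2, rose by 0.51 (standard error 0.10, adjusted p = 0.00415). The calls of these 3 genes held under all 18 alternatives tried. In LAN4 against CD over the 3 times, 15 of 17 values were positive, against 47.8% over all genes. In that comparison, with 0.76% of all genes called, 1 of the 17 was called, loxa, whose product, lysyl oxidase, cross-links collagen (0.42, adjusted p = 0.021, and 0.0977 with genes of all chromosomes). There 11 of the 17 had an unadjusted p under 0.05, against 2901 of 23153 genes. DESeq2 called 3, loxa, plod1a and serpinh1a, against 2.62% of all genes. The most abundant of the list were ppib, a prolyl isomerase gene (998 TPM), and p4hb, which encodes protein disulfide isomerase (164 TPM). They had values of -0.04 and 0.13 from pre-stress to 6 h (adjusted p = 0.815 and 0.322).

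Cartilage matrix genes were covered by 7 tested of 17 names. At 6 h all 7 had higher values in LAN4, and the list median was 0.90 (log2 fold change) against -0.01 over all genes, of which 47.8% were positive. By edgeR 0 of 7 were called, 4 had an unadjusted p under 0.05, and DESeq2 called 3, hapln1b, col2a1b and col11a1a. Of all genes tested, edgeR called 0.587%, 3562 of 23153 had an unadjusted p under 0.05, and DESeq2 called 3.5%. Summed over the 7 genes, the level was between 196 and 326 CPM in CD and between 467 and 507 CPM in LAN4 at 6 h. At pre-stress it was between 203 and 366 CPM in CD and between 416 and 499 CPM in LAN4, and at 1 h the diets overlapped, with 420 to 696 and 303 to 672 CPM. The most abundant were the collagen genes col11a1a (81.1 TPM) and col2a1b (70.8 TPM), with differences of 0.85 and 0.90 at 6 h (adjusted p = 0.161 and 0.146).

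Between pre-stress and 6 h over both diets, 0 of the 7 cartilage genes were called by edgeR and 0 by DESeq2, and 2 had an unadjusted p under 0.05. Of all genes tested, edgeR called 11.7% there, and 6052 of 23153 had an unadjusted p under 0.05. From 1 h to 6 h in CD, where lane moves with time, 3 of 7 were called lower, against 6.32% of all genes, hapln1b at -1.60, col2a1b at -1.23 and col11a1a at -0.98 (adjusted p = 0.0281, 0.015 and 0.0376). These calls rested on single fish. That of col2a1b was lost without CD 1 h replicate 2 (0.0565) or CD 6 h replicate 2 (0.0554). That of col11a1a was lost without CD 1 h replicate 2 (0.103) or 3 (0.118) or CD 6 h replicate 1 (0.11) or 2 (0.126), and that of hapln1b without the same fish (0.0669, 0.0931, 0.0742 and 0.101) or CD 6 h replicate 3 (0.0546). The matrix gene comp, at a mean of 1.52 CPM, had a value of -1.18 from pre-stress to 1 h over both diets (adjusted p = 0.0365). Lane moves with time there too, and 4.39% of all genes were called. The call of comp was kept under 6 alternatives and lost under 11, with adjusted p up to 0.0929, without CD 1 h replicate 2.

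Genes of hypertrophic cartilage and its regulators were represented by 4 tested of 18 names. One of them, mef2cb, encodes a factor that in mouse is needed for chondrocyte hypertrophy. It was between 4.76 and 5.74 CPM in CD and between 9.49 and 12.0 CPM in LAN4 at 6 h, a difference of 1.01 (standard error 0.21, adjusted p = 0.0411). Leaving out any 1 of those 6 fish put its adjusted p between 0.0565 and 0.154. Its call was also lost with genes of all chromosomes (0.0965), the replicate block (0.0535) and only the libraries compared (0.0685). In CD mef2cb was lower by 1.00 at 6 h than at 1 h (adjusted p = 0.00639), a call that held under every alternative. In that comparison 11.8% of all genes were called and lane cannot be told apart from time. The most abundant of the list, the homeobox gene dlx3b (70.9 TPM), was higher by 0.72 at 1 h than at pre-stress over both diets (adjusted p = 0.000182). There 4.39% of all genes were called, and lane again cannot be told apart from time.

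Bone and osteoblast genes were covered by 5 tested of 17 names. Between the diets at 6 h edgeR called 0.587% of all genes and DESeq2 3.5%, and 3562 of 23153 had an unadjusted p under 0.05. Of the 5 bone genes edgeR called 0, 1 had an unadjusted p under 0.05, and DESeq2 called col1a1a. This gene of type I collagen (790 TPM) had higher values in LAN4 by 0.92 at pre-stress and by 0.85 at 6 h (adjusted p = 0.285 and 0.122). From 1 h to 6 h in CD, where lane moves with time and 11.8% of all genes were called, its value was -0.85 (adjusted p = 0.0426). It was not called without CD 1 h replicate 2 (0.135) or 3 (0.11) or CD 6 h replicate 1 (0.0696) or 2 (0.153). The growth factor gene bmp4 (46.1 TPM) had a diet difference of -0.21 at 6 h (adjusted p = 0.762). The summed level of the list was almost all col1a1a, at a mean of 2008 CPM against 38.0 CPM for bmp4, the next. At pre-stress the sum was between 880 and 1885 CPM in CD and between 2253 and 3207 CPM in LAN4. At 6 h it was between 899 and 1618 CPM in CD and between 1980 and 2657 CPM in LAN4. The diets overlapped at 1 h, with 1907 to 2664 and 1864 to 2361 CPM. Over the 3 times 2 of the 5 genes had higher values in LAN4, and the list median was -0.03 (log2 fold change) against -0.01 over all genes.

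Matrix metalloproteinases, which cleave collagens, and their inhibitors were covered by 10 genes tested of 17 names. At 6 h 2 of them were higher in LAN4, the gelatinase gene mmp2 by 0.76 (standard error 0.14) and the inhibitor gene timp2a by 0.56 (standard error 0.10), each with an adjusted p of 0.0344, while 0.587% of all genes were called. For mmp2 the fish were at 328, 286 and 332 CPM in CD and at 507, 574 and 516 CPM in LAN4, without overlap, as for 10.5% of all genes. Both calls were lost without CD 6 h replicate 2 (adjusted p = 0.152 each), LAN4 6 h replicate 2 (0.128 each) or LAN4 6 h replicate 3 (0.0849 and 0.0852), and that of timp2a also without CD 6 h replicate 3 (0.0588). They were lost as well with genes of all chromosomes (0.0965 each) and with only the libraries compared (0.0554 for mmp2 and 0.0836 for timp2a). Over the 3 times mmp2 and timp2a were higher in LAN4 by 0.40 and 0.30 (adjusted p = 0.0291 each), with 0.76% of all genes called. These calls were kept under 12 and 13 alternatives and lost under 12 and 11. The correlation of mmp2 with col10a1a was 0.902. The collagenase gene mmp13, in mammals a product of late hypertrophic cartilage, ran against both genes (r = -0.683 with col10a1a and -0.77 with col10a1b). From 1 h to 6 h in CD mmp13 rose by 1.14 (adjusted p = 0.0345), with adjusted p between 0.0691 and 0.101 when any 1 of those 6 fish was left out. In the same comparison mmp2 and timp2a were lower, at -0.683 and -0.675 (adjusted p = 0.00541 and 0.000852). Both of these calls held under all 12 alternatives tried. Here too lane moves with time, and 11.8% of all genes were called. Next to mmp2 (391 TPM) the most abundant was mmp30 (208 TPM), with a diet difference of -0.47 at 6 h (adjusted p = 0.196).

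The list of short-chain collagens and C1q-domain proteins held 9 names, of which 4 had a gene, and 5 genes were tested. These were c1qtnf1, c1qtnf2, c1qtnf6a, c1qtnf12 and emilin3a, so no short-chain collagen gene besides col10a1a and col10a1b was tested. Of the 5, emilin3a belongs to the EMILIN family but is the member that lacks the C1q-like domain. Averaged over the diets 3 of 5 were lower at 6 h than at pre-stress, against 5.34% of all genes. All 5 values were negative, while 49.1% of all genes had positive values. Those called were c1qtnf1 (-0.36, adjusted p = 0.00976), c1qtnf12 (-0.51, adjusted p = 0.0162) and c1qtnf6a (-0.46, adjusted p = 0.0305), C1q and TNF related genes, which encode secreted proteins. The call of c1qtnf6a was lost without CD pre-stress replicate 2 (0.0853) or 3 (0.0626), CD 6 h replicate 2 (0.0743) or 3 (0.0612), LAN4 pre-stress replicate 2 (0.0865) or LAN4 6 h replicate 2 (0.0593) or 3 (0.0728). The most abundant were c1qtnf1 (193 TPM) and emilin3a (24.1 TPM), whose value of -0.17 did not pass (adjusted p = 0.825).

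Markers of other tissues were summed in the same libraries. In a bulk sample fewer cells of a type and less RNA per cell cannot be told apart. Of 22 skeletal muscle names 8 genes were tested, and all 8 had higher values in LAN4 at pre-stress and at 6 h (medians 1.12 and 1.54 on the log2 scale). Over all genes 49.4% and 47.8% were positive. The summed level of the 8 genes was between 658 and 995 CPM in CD and between 1270 and 1528 CPM in LAN4 at pre-stress. At 1 h it was between 794 and 888 CPM in CD and between 971 and 1294 CPM in LAN4. At 6 h it was between 593 and 791 CPM in CD and between 1089 and 1371 CPM in LAN4. The diets thus overlapped in this sum at none of the 3 times. Most of the sum was the tropomyosin genes tpm1 and tpm2, at means of 531 and 316 CPM, against 127 CPM for atp2a1, the next. In CD 1 h replicate 3, atp2a1, ckmb, mb and tnni2a.2 were at 0 CPM, while tpm1 was at 617 and tpm2 at 170 CPM. The sum thus did not follow those genes at 0 in that fish, and how far it reflects skeletal muscle was not tested. At pre-stress edgeR called 0 of 8, and 3 had an unadjusted p under 0.05. Over all genes edgeR called 0.00864% there, and 2150 of 23153 had an unadjusted p under 0.05. At 6 h edgeR called 0 of 8, 6 had an unadjusted p under 0.05, and DESeq2 called 2. The values over all genes were 0.587% called by edgeR, 3562 of 23153 with an unadjusted p under 0.05, and 3.5% called by DESeq2. Over the 3 times 7 of 8 had an unadjusted p under 0.05, against 2901 of 23153 genes, and DESeq2 called 5, against 2.62% of all genes. By edgeR 1 of the 8 was called there, tpm2, a tropomyosin gene (144 TPM; 0.85, adjusted p = 0.0286), with 0.76% of all genes. Its call was kept under 15 alternatives and lost under 9, among them without LAN4 1 h replicate 1 (0.0803) and with genes of all chromosomes (0.11). The other tropomyosin gene tpm1 (191 TPM) had a difference of 0.36 at 6 h (adjusted p = 0.217). The calcium channel gene ryr1b, at 1.19 TPM, had a value of -0.82 from pre-stress to 1 h (adjusted p = 0.0379), where lane moves with time and 4.39% of all genes were called. The call of ryr1b was kept under 6 alternatives and lost under 12, with adjusted p up to 0.0925, without CD pre-stress replicate 2. Of the 5 muscle genes with a mean log2 CPM of at least 3, tpm1 correlated at 0.676 with col10a1a and 0.568 with col10a1b, tpm2 at 0.6 and 0.292, ryr1a at 0.382 and 0.201, the muscle creatine kinase gene ckmb at 0.196 and 0.005, and the calcium pump gene atp2a1 at 0.12 and -0.07.

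The 5 erythrocyte genes tested summed to between 1504 and 2241 CPM in CD and between 1188 and 1725 CPM in LAN4 at 6 h, with overlap. The most abundant were the ammonia channel gene rhag (457 TPM) and alas2, of haem synthesis (388 TPM), with diet differences of 0.21 and -1.06 at 6 h (adjusted p = 0.497 and 0.0823). Of 4 gill ionocyte and epithelium genes, foxi3a (205 TPM), a factor of ionocyte development in zebrafish, rose by 1.17 from pre-stress to 6 h (adjusted p = 3.64e-05). There 11.7% of all genes were called. The sodium pump subunit gene atp1b1a was higher by 0.70 at 1 h than at pre-stress (adjusted p = 0.000308), where 4.39% were called and lane cannot be told apart from time. The cotransporter gene slc12a2 (542 TPM) had a value of -0.12 from pre-stress to 6 h (adjusted p = 0.691). The summed level of the 4 ranged from 712 to 1299 CPM at pre-stress and from 879 to 1293 CPM at 6 h. No matched marker on the complete chromosomes was at 0 in all libraries. The part of tissue makeup in the levels of col10a1a and col10a1b was not tested.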

How the data were processed

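The authors used nf-core's RNA-seq workflow to align read pairs to Ssal_v3.1 and deposited raw counts per gene from featureCounts (Subread 1.5.1), 1 file per fish, stranded and without normalization. Counting left out fragments that mapped to several places. Counts are fragments without molecular identifiers, so errors given here are those between fish.

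The members, the 9 gene lists and the tests were chosen with earlier results of these data known. Genes of the 16 complete chromosomes were filtered (filterByExpr), which left 23153, TMM-normalized and fitted with 1 mean per group over 18 libraries by the quasi-likelihood test of edgeR 4.0.16 in R 4.3.3. All adjusted p of differences in level come from this test, unless DESeq2 (1.42.0) is named, with Benjamini-Hochberg adjustment over all genes tested and a threshold of 0.05. Log2 CPM used a prior count of 2. The ratio was tested by exact permutation and correlations by 100000 permutations. Named genes were both members, the 10 most like and 5 most unlike each, list genes past the threshold in a comparison, and the 2 most abundant of each list. RefSeq names of 34983 genes came from position (0.5 of both spans overlapping), and 8968 were not LOC numbers. Lists therefore cover only part of their names.

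Same-numbered fish deviated together at pre-stress between the diets (r between 0.114 and 0.151 across genes) and in LAN4 between 1 h and 6 h (0.15 to 0.203), by the data alone, and not in the other pairings. Alternatives were RLE factors, DESeq2, no filter, genes of all chromosomes, the replicate block, only the libraries compared, each fish left out and, added after seeing the data, exchange of labels within same-numbered fish for the ratio.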

Additional observations from a re-analysis of the deposited data

How the results depend on the processing

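Of 546 recomputed values of the levels, the ratio and the correlation, 507 kept their direction and their side of the threshold, 8 lost a call, 9 gained one and 22 changed sign, all of the last with 1 fish left out. Ratio comparisons of 1 group with another could not pass in any setting, so for them only a change of sign was possible. The fall of col10a1a from 1 h to 6 h in CD was -0.91 in each of the settings without a filter and with only the libraries compared (adjusted p = 0.0608 and 0.0881), and between -1.14 and -0.64 with 1 fish left out. That of col10a1b was -0.86 with only the libraries compared (adjusted p = 0.0663) and between -1.02 and -0.66 with 1 fish left out. DESeq2 called col10a1a in LAN4 against CD at 6 h (0.88) and over the 3 times (0.52), and col10a1b at 6 h against pre-stress in CD (-0.64) and in LAN4 (-0.68). Genes of all chromosomes gave the last 2 as -0.64 and -0.68 (adjusted p = 0.0344 and 0.0322). In that setting 7346 and 5325 of 33433 genes were called, since the 6 h libraries lack counts on many chromosomes. So many calls by themselves lower the adjusted p of every other gene, so these 2 values are not further support. With the replicate block, col10a1b at 6 h against pre-stress in LAN4 was -0.67 (adjusted p = 0.0424), where the numbers do not pair the fish, and no other call of either gene changed with the block.

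With 1 fish left out, LAN4 against CD at 1 h ranged from -0.20 to 0.30 for col10a1a and from -0.27 to 0.10 for col10a1b. Single settings that changed the sign gave -0.13 and -0.04 for col10a1a. The change to 1 h averaged over the diets ranged from -0.014 to 0.25 for col10a1a and from -0.12 to 0.072 for col10a1b, which was above 0 in 4 of these settings (0.072 in 2 of them, 0.022 and 0.024). The change of col10a1a in LAN4 ranged from -0.34 to 0.014 from pre-stress to 1 h and from -0.25 to 0.10 from 1 h to 6 h, with 0.02 in the other reversal. The difference between the diets in the change of col10a1b to 6 h ranged from -0.22 to 0.11, with 0.04, 0.03 and 0.04 in the other reversals. The log2 ratio ranged from -0.029 to 0.28 for LAN4 against CD at 1 h, from -0.11 to 0.19 for 1 h against pre-stress in LAN4 (-0.03 in the other reversal), from -0.023 to 0.44 for 6 h against pre-stress in CD, from -0.11 to 0.036 for 6 h against 1 h in CD (0.03 in the other reversal), from 0.26 to 0.41 for LAN4 against CD over the 3 times, and from 0.21 to 0.44 for 6 h against pre-stress over both diets. With the replicate block for the ratio, chosen after seeing the data, no comparison could pass after adjustment, and none had passed without it. The smallest p that 3 pairs allow is 0.25.

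The number of all genes called moved more. For LAN4 against CD it ranged from 1 to 105 at pre-stress (2 as reported), from 0 to 21 at 1 h (0), from 0 to 811 at 6 h (136) and from 8 to 607 over the 3 times (176), with DESeq2 highest. For 1 h against pre-stress it ranged from 171 to 1017 in CD (443), from 167 to 518 in LAN4 (263) and from 512 to 1540 over both (1016). For 6 h against pre-stress it ranged from 107 to 7346 in CD (719), from 334 to 5325 in LAN4 (876) and from 1885 to 9332 over both (2705), and for 6 h against 1 h from 1057 to 9323 in CD (2733) and from 646 to 6324 in LAN4 (1846). The highest counts for 6 h against pre-stress or 1 h came with genes of all chromosomes, where the 6 h libraries lack counts. The differences between the diets in the change to 1 h and to 6 h gave 0 to 52 (2) and 0 to 8 (1). Of 46 calls of list genes, 18 held under every alternative that gave a value and none changed sign.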
